A study of Homo sapiens with 2 samples.

Results

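The SWI/SNF (BAF) chromatin remodelling complexes were examined through 31 subunit genes, taken as a fixed list of canonical BAF (cBAF), polybromo BAF (PBAF) and non-canonical BAF (ncBAF) components and their paralogs. All 31 were found by symbol among the 57736 genes of the deposited count table, and 29 reached 10 reads summed over the libraries, the minimum used for counts over genes. The table held RNA-Seq counts from A1847 cells, a human epithelial ovarian cancer cell line with high CARM1 expression. It had 1 library of parental control cells, labelled CARM1 wild type, and 1 library of CARM1 knockout (CARM1 KO) cells, both grown in the same medium and with no other treatment named in the labels. The CARM1 KO cells were a clone obtained with a lentiviral CRISPR vector carrying a single guide RNA, whereas the control was the parental line, so a difference between a clone and its parent population cannot be told apart from an effect of CARM1 loss. With 1 library per group no spread between replicates could be estimated, no difference has a replicate check and no P value is given. Folds are ratios of TMM-scaled counts, CARM1 KO over parental, and their 95% intervals are exact binomial ones, for counting error alone. Parental reads and KO reads stand for the counts of a gene in each library.

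SWI/SNF complexes use the energy of ATP to slide or eject nucleosomes and thereby open regulatory DNA, in opposition to the Polycomb complex that contains EZH2. Each complex is built around a single ATPase, either SMARCA4 (BRG1) or SMARCA2 (BRM), on a core of SMARCC and SMARCD subunits. Many positions can be filled by alternative paralogs that exclude each other. Ratios of paralog transcripts are given below for that reason. They do not show protein levels or which paralogs were held in complexes. CARM1, an arginine methyltransferase, methylates the core subunit SMARCC1 (BAF155), which is a reason these subunits matter to the study. In the paper's pathway analysis, SMARCA4 also ranked first among upstream regulators of the genes that differed between these cells. ARID1A, which marks cBAF, is among the genes most often mutated in some types of ovarian cancer.

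The libraries held 30741953 parental and 32300391 KO reads. The knockout guide matched the GRCh37 genome at 1 place, chr19:11022919-11022938 on the plus strand, in coding exon 5 of the canonical CARM1 transcript and followed by a TGG PAM. It is shown because it defines the comparison.
CARM1 guide RNA: agcacggaaaatctacgcgg
For CARM1, 975 parental and 380 KO reads were counted, or 2.65-fold fewer after scaling (95% interval 2.35 to 2.99). Transcripts were thus still counted in the library labelled CARM1 KO, and counts over the whole gene do not show the edit itself. Of the 8 markers of ovarian epithelial cancer, KRT8, KRT18, EPCAM and PAX8 were counted in both libraries, with at least 249 reads each. MUC16 had at most 1 read, WT1 at most 8 reads, CDH1 3 and 53 reads, and KRT19 45 and 0 reads in parental and CARM1 KO cells. Of the fibroblast markers, DCN and LUM had 24 and 61 reads in parental and at most 1 read in CARM1 KO cells, COL1A1 had 131 and 537 reads, and PDGFRB had 132 and 142 reads. The leukocyte marker PTPRC had 6 and 0 reads. Scaled to library size, 6 of the 8 epithelial markers were higher in CARM1 KO cells, MUC16 among them with only 0 and 1 reads. Summed reads of the 8 were 39370 and 123645, mostly from KRT8, with 17600 and 70370, and KRT18, with 21154 and 51223. Of the 4 fibroblast markers 2 were higher, with 348 and 680 reads in sum over the 4. PDGFRB was 1 of these 2, and the interval of its fold, 0.816 to 1.33, included no change. In bulk RNA, fewer cells of a type and less RNA per cell cannot be told apart. The part of these marker differences in the results below was not tested.

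The results turn most on the ATPases SMARCA2 and SMARCA4, and the sequences at their start sites are therefore shown. In each, the 250 bases before and 50 bases after the most upstream RefSeq start are given on the coding strand, with every CG dinucleotide in capitals. They are from GRCh38.p14, at chr9:2015097-2015396 for SMARCA2 and chr19:10960780-10961079 for SMARCA4, both on the plus strand. The gene spans given below come from another annotation, which can have other starts. Which start was used in these cells was not determined.
SMARCA2: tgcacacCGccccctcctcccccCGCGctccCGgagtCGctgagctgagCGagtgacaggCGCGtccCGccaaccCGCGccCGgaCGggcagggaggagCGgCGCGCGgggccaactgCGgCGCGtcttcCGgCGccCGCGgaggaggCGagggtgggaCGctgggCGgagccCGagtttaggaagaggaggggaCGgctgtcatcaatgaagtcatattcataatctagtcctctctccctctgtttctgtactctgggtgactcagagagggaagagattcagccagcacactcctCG
SMARCA4: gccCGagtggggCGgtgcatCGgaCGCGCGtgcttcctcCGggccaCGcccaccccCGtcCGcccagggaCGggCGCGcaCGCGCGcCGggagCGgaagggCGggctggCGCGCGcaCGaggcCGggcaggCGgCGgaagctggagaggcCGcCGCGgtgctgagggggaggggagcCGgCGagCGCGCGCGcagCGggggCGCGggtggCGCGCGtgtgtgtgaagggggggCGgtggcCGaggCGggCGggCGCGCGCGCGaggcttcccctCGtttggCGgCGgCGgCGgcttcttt
CG occurred 30 times in the SMARCA2 window and 55 times in the SMARCA4 window, against a median of 13 over the most upstream windows of 27305 genes. Both windows are thus of the CpG-rich kind. Of the 26 subunit genes with an entry, 88.5% had at least 20 CG, compared with 41.0% of all windows. The subunit windows with the fewest CG were those of ARID1B, with 5, BICRAL, with 17, and DPF3, with 18. These counts hold for the most upstream start alone, and other starts of the same genes were not examined.

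The ATPase SMARCA2 had the largest fold among the 25 subunits that reached 500 reads over both libraries. SMARCA2 (ENSG00000080503, GRCh37 chromosome 9, 1980290 to 2193624, plus strand) had 343 parental and 1823 KO reads. This was a 5.15-fold higher level in CARM1 KO cells (95% interval 4.58 to 5.79). SMARCA4 (ENSG00000127616, chromosome 19, 11071608 to 11190102, plus strand) had 4739 parental and 4347 KO reads, a 1.13-fold lower level (95% interval 1.08 to 1.17). The ratio of SMARCA2 to SMARCA4 reads, which does not depend on how the libraries are scaled, was therefore 5.79-fold higher in the KO library (95% interval 5.12 to 6.57). Per kilobase of exon, SMARCA2 made up 5.58% of the ATPase reads in parental cells and 25.5% in CARM1 KO cells. SMARCA4 remained the more abundant ATPase transcript in both libraries. The sum of both ATPases per kilobase was 1.13-fold higher in CARM1 KO cells, so the ratio moved far more than the total.

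**Figure D1:**
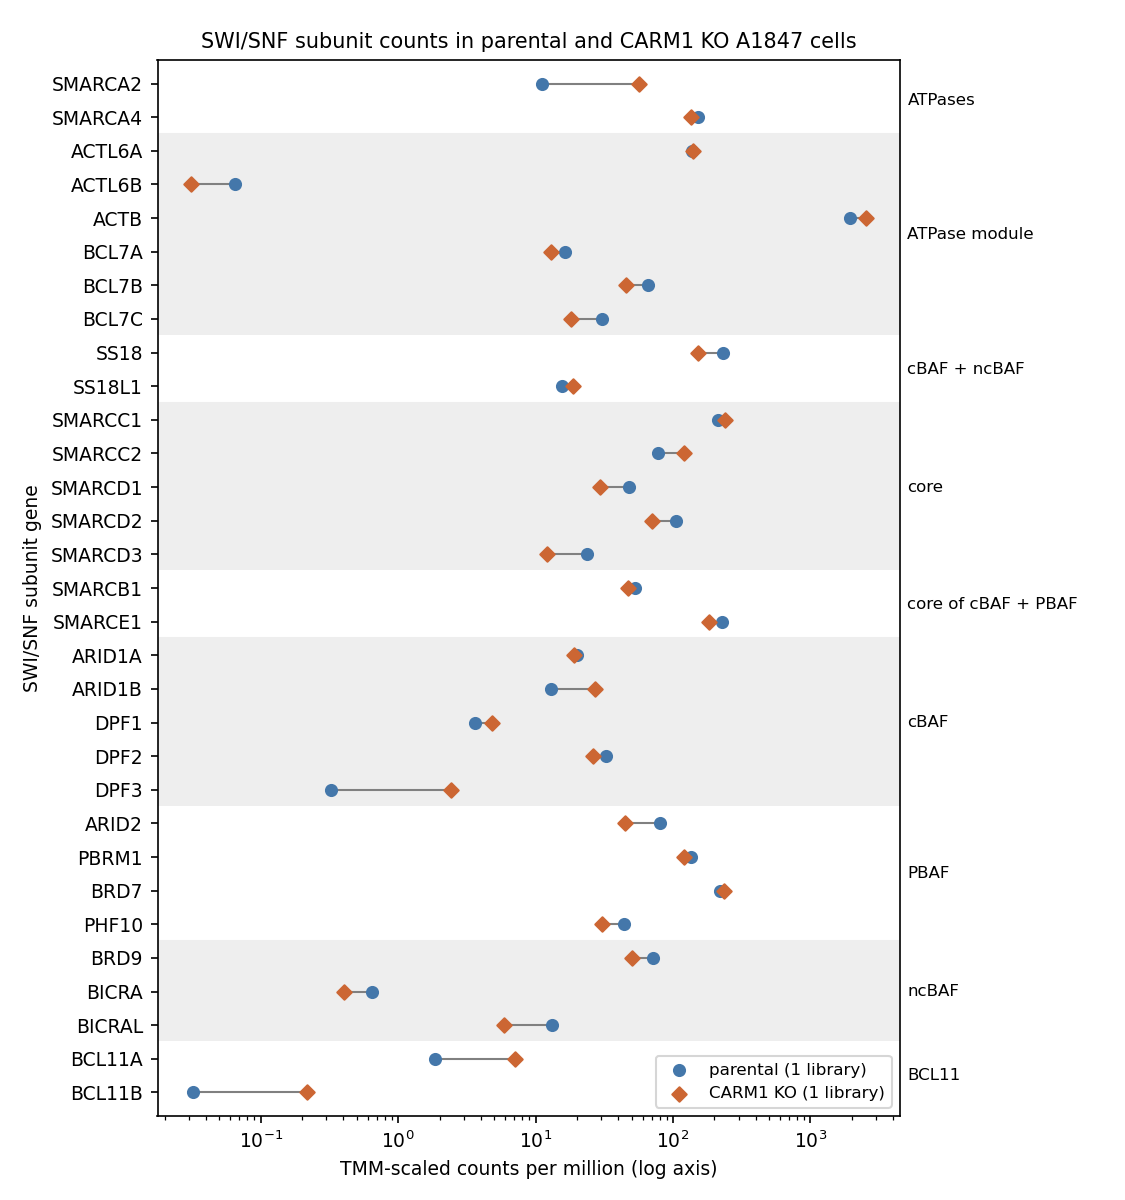
TMM-scaled CPM (log axis) of the 31 SWI/SNF subunit genes, grouped by the complex or module they belong to; circles are the parental library and diamonds the CARM1 KO library, 1 each, with no error bars because there are no replicates. SMARCA2, ARID1B, DPF3 and BCL11A lie to the right in CARM1 KO cells, while SMARCA4, ARID1A, ACTL6A and BRD7 nearly coincide.

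The cBAF-specific subunits ARID1A and ARID1B, which exclude each other from the complex, showed a smaller difference of the same kind. ARID1B (ENSG00000049618, chromosome 6, 157097154 to 157531913, plus strand) had 400 parental and 864 KO reads, a 2.09-fold higher level (95% interval 1.86 to 2.36). ARID1A (ENSG00000117713, chromosome 1, 27019727 to 27108595, plus strand) had 624 and 605 reads, and the interval of its fold, 0.838 to 1.05, included no change. ARID1B reads relative to ARID1A reads were 2.23-fold higher in the KO library (95% interval 1.89 to 2.63). Which of them was the more abundant per kilobase in CARM1 KO cells depended on the length used. With the union of annotated exons ARID1B made up 18.2% of the pair in parental and 33.1% in CARM1 KO cells, and with the longest transcript 33.8% and 53.2%. The share was higher in CARM1 KO cells under either length.

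The DPF subunits carry paired PHD fingers that read histone tails in cBAF. DPF2, the broadly expressed member, had 1002 parental and 837 KO reads, a 1.24-fold lower level (95% interval 1.13 to 1.36). DPF3, known from heart, muscle and neurons, had 10 and 78 reads, a 7.55-fold higher level whose interval, 3.90 to 16.4, was the widest among subunits with at least 50 reads. DPF1, a neuronal subunit, had 113 and 153 reads, 1.31-fold higher in the KO library (95% interval 1.02 to 1.69). DPF3 was still a minor transcript in CARM1 KO cells, at 3.40% of DPF reads per kilobase of exon, against 0.417% in parental cells. The ratio of DPF3 to DPF2 reads was 9.34-fold higher in the KO library (95% interval 4.77 to 20.3), and that of DPF1 to DPF2 was 1.62-fold higher (95% interval 1.24 to 2.12).

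**Figure D2:**
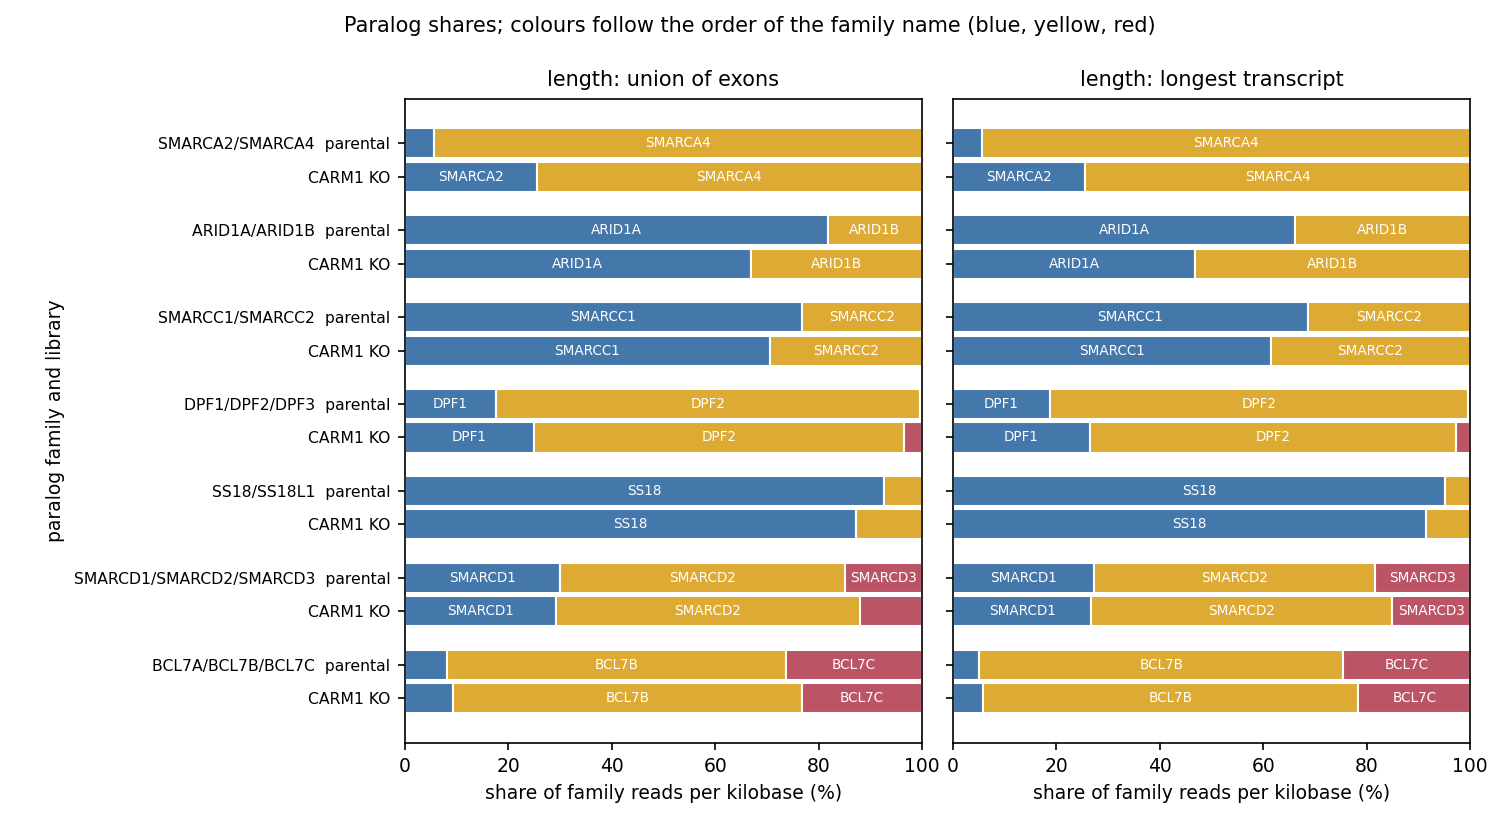
Share of each paralog in the reads per kilobase of its family (%), in the parental and CARM1 KO libraries, with lengths from the union of exons (left) or the longest transcript (right); colours follow the order of genes in the family name, and shares carry no error bar. SMARCA2 goes from 5.58% to 25.5% with exon union lengths, while the SMARCD and BCL7 shares keep nearly the same division.

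In the core, SMARCC1 (BAF155) and SMARCC2 (BAF170) form dimers on which the complex assembles. SMARCC1, the CARM1 substrate, had 6585 parental and 7695 KO reads, a 1.13-fold higher level (95% interval 1.09 to 1.17). SMARCC2 had 2407 and 3873 reads, 1.56-fold higher in the KO library (95% interval 1.48 to 1.64). The SMARCC2 to SMARCC1 read ratio was 1.38-fold higher (95% interval 1.30 to 1.46). SMARCC2 shares 719 exonic bases with MYL6, a myosin light chain gene on the opposite strand that had 26184 parental and 47849 KO reads and was 1.77-fold higher. Because the sources do not say whether strand was used in counting, reads of SMARCC2 and MYL6 cannot be told apart in these bases.

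The SMARCD subunits (BAF60), of which each complex takes a single member, were all lower in CARM1 KO cells. SMARCD1 had 1474 parental and 941 KO reads, a 1.62-fold lower level (95% interval 1.49 to 1.76). SMARCD2, best known from granulocyte development, had 3250 and 2267 reads and was 1.48-fold lower (95% interval 1.40 to 1.56). SMARCD3, a subunit of heart and muscle, had 733 and 389 reads and was 1.95-fold lower (95% interval 1.72 to 2.21). Here the division among paralogs moved little, and the family as a whole was lower: SMARCD reads per kilobase summed to a 1.58-fold lower level in CARM1 KO cells. The ratio of SMARCD2 to SMARCD1 had an interval, 0.990 to 1.21, that included no change. SMARCD3 shares 1321 exonic bases with CHPF2 on the opposite strand, which was 1.33-fold higher and thus differed the other way.

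SMARCB1 (SNF5), lost in rhabdoid tumours, and SMARCE1 (BAF57) belong to the core of cBAF and PBAF but not of ncBAF. SMARCB1 had 1634 parental and 1500 KO reads, 1.12-fold lower in the KO library (95% interval 1.05 to 1.21). SMARCE1 had 6997 and 5813 reads, 1.24-fold lower (95% interval 1.20 to 1.29). Neither passed 1.5-fold in either direction.

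Among PBAF-specific subunits, ARID2 stood apart. ARID2, the PBAF counterpart of the ARID1 subunits (ENSG00000189079, chromosome 12, 46123489 to 46301823, plus strand), had 2493 parental and 1435 KO reads. It was 1.79-fold lower in the KO library (95% interval 1.68 to 1.92). PBRM1 (BAF180), with its row of bromodomains, had 4170 and 3868 reads and was 1.11-fold lower (95% interval 1.07 to 1.16). BRD7, a bromodomain subunit, had 6802 and 7568 reads and was 1.08-fold higher (95% interval 1.04 to 1.11). PHF10 (BAF45A), which takes the place of the DPF subunits in PBAF, had 1365 and 971 reads and was 1.45-fold lower (95% interval 1.34 to 1.58). PHF10 shares 485 exonic bases with C6orf120 on the opposite strand, which was also lower, with 1365 and 661 reads.

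Of the ncBAF-specific subunits, BRD9 and BICRAL were lower in CARM1 KO cells. BRD9, the bromodomain subunit that marks ncBAF, had 2213 parental and 1616 KO reads, a 1.41-fold lower level (95% interval 1.33 to 1.51). BICRAL (GLTSCR1L; ENSG00000112624, chromosome 6, 42749790 to 42836296, plus strand) had 409 and 189 reads and was 2.23-fold lower (95% interval 1.88 to 2.67). This was the largest difference toward a lower level among the subunits with at least 10 reads. Its paralog BICRA (GLTSCR1) had 20 and 13 reads, and the interval of its fold, 0.288 to 1.33, included no change, so no difference was detectable at this depth. The read ratio of BRD9, specific to ncBAF, to BRD7, specific to PBAF, was 1.52-fold lower in the KO library (95% interval 1.42 to 1.64).

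**Figure D3:**
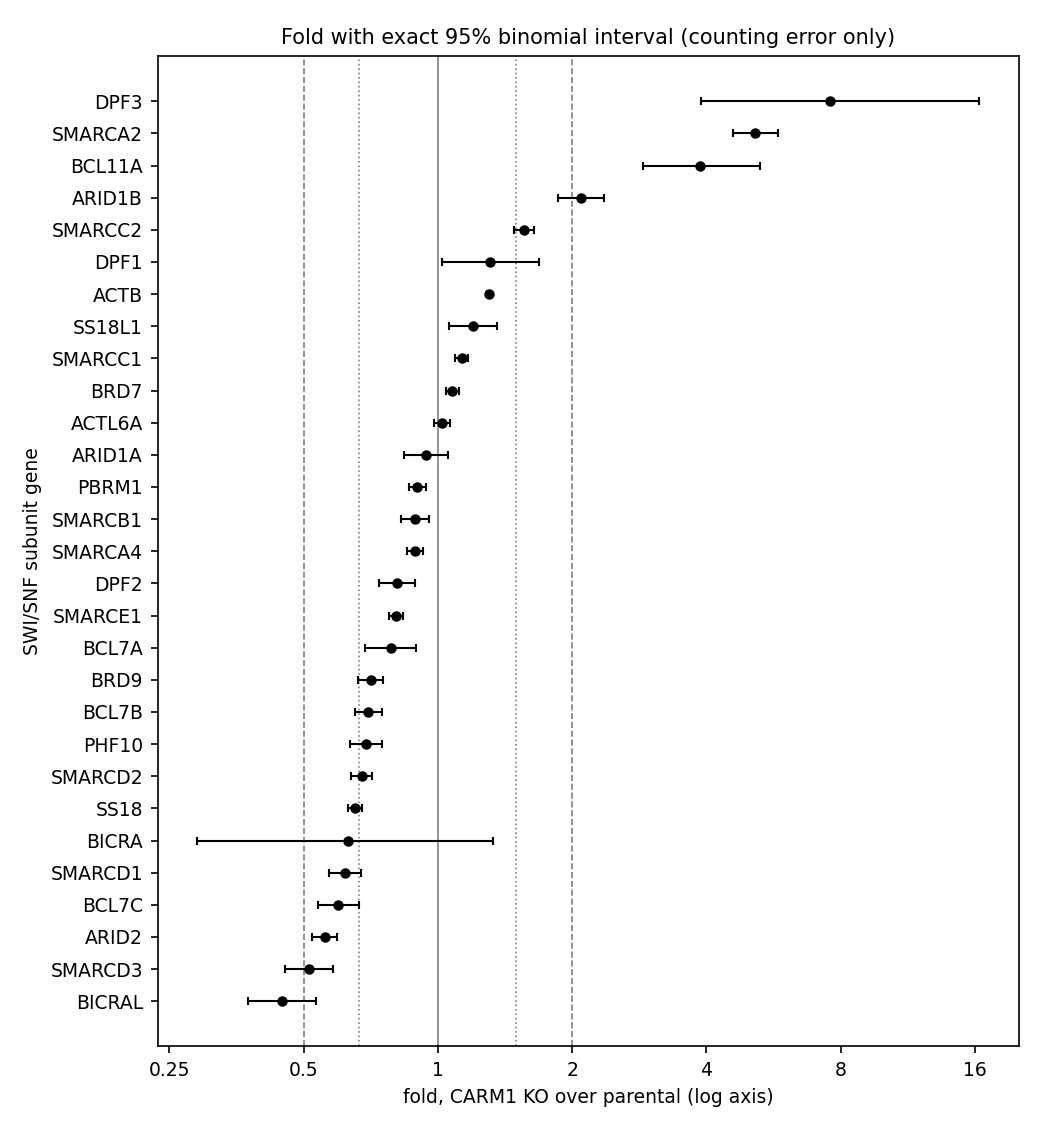
Fold of CARM1 KO over parental (log axis) for the 29 subunit genes that reached 10 reads over both libraries, ordered by fold; bars are exact 95% binomial intervals for counting error, the dotted lines mark 1.5-fold, the dashed lines 2-fold and the solid line no change. DPF3, SMARCA2, BCL11A and ARID1B lie above 2-fold and BICRAL below, and the bar of BICRA crosses the line of no change.

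In the ATPase module, which joins actin-related proteins and small subunits to the motor, BCL7C alone passed 1.5-fold. ACTL6A (BAF53A), the subunit of dividing cells, had 4270 parental and 4510 KO reads, and its interval, 0.981 to 1.07, included no change. Its neuronal paralog ACTL6B had 2 and 1 reads, at or under the 3 reads that a count of 0 allows, so no fold is given. ACTB, the actin of the module and of the cytoskeleton, had 60590 and 81494 reads and was 1.30-fold higher (95% interval 1.29 to 1.32). The count of ACTB does not show how much actin is held by SWI/SNF complexes, and its pseudogenes may share reads with it. BCL7B had 2032 and 1466 reads and was 1.43-fold lower (95% interval 1.34 to 1.53). BCL7C had 945 and 584 reads and was 1.67-fold lower (95% interval 1.51 to 1.86). BCL7A, a gene altered in B-cell lymphomas, had 510 and 413 reads and was 1.28-fold lower (95% interval 1.12 to 1.46). The BCL7 genes were thus lower together, with a 1.47-fold lower sum of reads per kilobase and, for BCL7A relative to BCL7B, a ratio interval of 0.967 to 1.30.

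SS18, known from its fusion in synovial sarcoma, and SS18L1 (CREST), known from neurons, fill the same position in cBAF and ncBAF. SS18 had 7202 parental and 4849 KO reads and was 1.53-fold lower (95% interval 1.48 to 1.59). SS18L1 had 484 and 599 reads and was 1.20-fold higher (95% interval 1.06 to 1.35). The SS18L1 to SS18 read ratio was 1.84-fold higher in the KO library (95% interval 1.62 to 2.09). SS18 remained the dominant member, with 92.6% of the pair per kilobase of exon in parental and 87.2% in CARM1 KO cells.

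BCL11A and BCL11B are zinc-finger transcription factors that were also found as subunits of these complexes in blood cells and brain. BCL11A (ENSG00000119866, chromosome 2, 60677655 to 60781602, minus strand), a repressor of fetal globin, had 57 parental and 228 KO reads. It was 3.87-fold higher in the KO library (95% interval 2.89 to 5.27). BCL11B, a T-cell factor, had 1 and 7 reads, and the interval of its ratio, 0.871 to 305, included no change.

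Across the 14 pairs compared, the reads moved toward SMARCA2, ARID1B, SMARCC2, DPF1, DPF3 and SS18L1 relative to SMARCA4, ARID1A, SMARCC1, DPF2 and SS18, which had more reads than them in parental cells. Each of these ratios had a counting interval above 1, which for SMARCC2 does not cover error from the bases it shares with MYL6. Ratios moved the other way, with an interval below 1, for SMARCD3 to SMARCD1, at 1.20-fold lower (95% interval 1.04 to 1.40), for BCL7C to BCL7B, at 1.17-fold lower (95% interval 1.03 to 1.32), and for BRD9 to BRD7. The other ratios, among them those of ACTL6B, BCL11B and BICRAL to their partners, had intervals that included no change.

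Levels between subunits were compared per kilobase of the longest transcript, as RPKM with TMM-scaled library sizes. After ACTB, the highest in parental cells were ACTL6A at 72.5, SS18 at 68.3, BRD7 at 40.1, BCL7B at 36.4 and SMARCC1 at 33.4 RPKM. SMARCA4 stood at 26.5 and SMARCA2 at 1.57 RPKM, close to DPF1 at 1.55 RPKM. In CARM1 KO cells SMARCA2 reached 8.06 RPKM, above ARID2 at 5.21 and SMARCD3 at 5.03 RPKM, which had both stood above it in parental cells. The ARID1 transcripts were low in both libraries, with ARID1A at 2.34 and 2.20 RPKM. BCL11B, DPF3, ACTL6B, BICRA and BCL11A made up the lowest 5 in parental cells, from 0.00378 to 0.301 RPKM. Because lengths are those of the annotation and not of the transcripts used in these cells, an order between neighbours in this ranking is uncertain.

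Counted over the 29 subunits with at least 10 reads, 5 passed 1.5-fold toward a higher and 7 toward a lower level in CARM1 KO cells. The same limits were passed by 28.3% and 29.2% of the 18563 genes that reached that minimum, so the shares of subunits, 17.2% and 24.1%, were not above the background. Past 2-fold, 4 subunits were higher and 1 was lower, beside 19.3% and 19.2% of those genes. Past 3-fold, 3 were higher and 0 were lower, beside 12.4% and 11.6%. Only 1 of the 29 subunits, BICRAL, was thus past 2-fold toward a lower level, or 3.45%. Among the 25 subunits that reached 500 reads over both libraries, 3 were higher and 6 lower past 1.5-fold, against 22.5% and 21.9% of the 9699 genes at that depth. In that class 2 were higher and 1 was lower past 2-fold, against 12.4% and 11.1%. The median log2 fold of the 29 subunits was -0.17, beside -0.04 for all 18563 genes. With counting error considered, SMARCA2, ARID1B, DPF3 and BCL11A had intervals wholly above 1.5-fold, and BCL7C, SMARCD3, ARID2 and BICRAL had intervals wholly past 1.5-fold toward lower levels. The share of all genes with such intervals was not computed, so this does not set these subunits apart from other genes.

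The other ATP-dependent remodeller families, taken as lists of 13 ISWI, 18 CHD and NuRD, and 21 INO80 and SRCAP genes, were compared in the same way. Together 2 of these 52 genes (3.85%) were higher and 16 (30.8%) were lower past 1.5-fold, beside 28.3% and 29.2% of all 18563 genes. Past 2-fold, 1 (1.92%) was higher and 7 (13.5%) were lower, beside 19.3% and 19.2%. The median log2 folds of the families were -0.26 for ISWI, -0.36 for CHD and NuRD, and -0.12 for INO80 and SRCAP. Within 2-fold between the libraries were 44 of the 52 genes and 24 of the 29 SWI/SNF subunits, beside 11404 of all 18563 genes. Most genes of any kind thus stayed within 2-fold. In the ISWI list BAZ2B, a bromodomain partner of the ISWI ATPases, had 3181 parental and 711 KO reads and was 4.62-fold lower (95% interval 4.26 to 5.02). CECR2 was 2.80-fold lower, and the ISWI ATPase SMARCA1 was 2.02-fold lower, with 9436 and 4833 reads. In the CHD and NuRD list the ATPase CHD7 was 2.44-fold lower, and the NuRD subunits MTA3 and GATAD2B were both 2.10-fold lower. In the INO80 and SRCAP list ACTR5 was 2.32-fold higher, with 229 and 548 reads, and INO80D was 2.18-fold lower. No gene of these 3 families was higher past 3-fold, whereas SMARCA2, DPF3 and BCL11A were, or 10.3% of the 29 subunits. That share was not above the 12.4% of all 18563 genes. Among the 25 subunits with at least 500 reads only SMARCA2 was, or 4%, against 7.07% of the genes at that depth. The difference between the families was not tested.

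**Figure D4:**
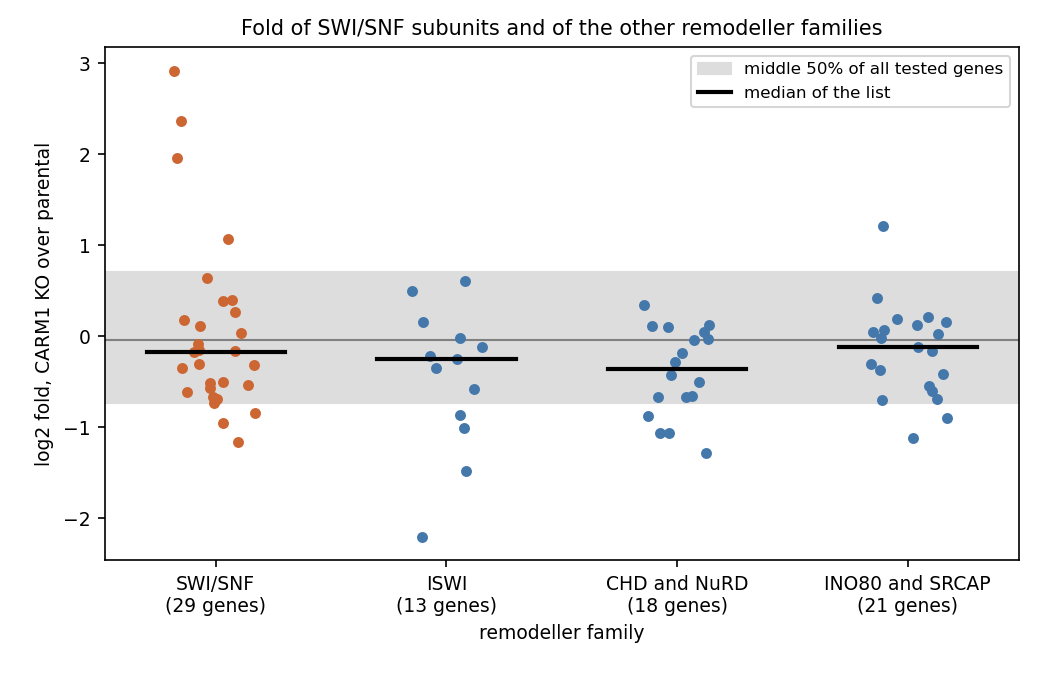
Log2 fold of CARM1 KO over parental for SWI/SNF subunit genes and for the 3 other remodeller families; each point is a gene that reached 10 reads over both libraries, the black bars are list medians, and the grey band holds the middle 50% of all 18563 genes around their median (grey line). The median of SWI/SNF subunits is -0.17, and the points of DPF3, SMARCA2 and BCL11A lie above all others.

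The subunit genes lie on many chromosomes, and each was set beside up to 10 neighbouring protein-coding genes that reached 50 reads over both libraries, 5 on either side. The 9 such neighbours of SMARCA2, which lies near the end of chromosome 9, had a median log2 fold of -0.23, and all 9 were below the 2.36 of SMARCA2. Among them VLDLR, with 46 parental and 228 KO reads and a log2 fold of 2.26, and WASHC1, with 35 and 155 reads and a log2 fold of 2.10, came close to it, and DOCK8 was lower, with 192 and 39 reads. The neighbours of ARID1B had a median of -0.16, and 2 of 10 were above it, RGS17 at 2.98 and TIAM2 at 2.10. Those of BCL11A had a median of -0.36, and 2 of 10 were above it, CCDC85A at 5.16 and EFEMP1 at 3.95. Those of DPF3 had a median of 0.14, and 1 of 10 was above it, TTC9, which was 7.99-fold higher beside 7.55-fold for DPF3. CARM1 itself is among the 10 neighbours of SMARCA4, whose median was -0.09, beside a log2 fold of -1.41 for CARM1 and -0.17 for SMARCA4. SS18 and SMARCD3 were lower while their neighbours had medians of 0.62 and 0.16. BICRAL, SMARCD1, SMARCD2 and SMARCB1 had log2 folds of -1.16, -0.69, -0.57 and -0.17, beside neighbour medians of -0.17, -0.17, -0.12 and -0.85. Closer to their neighbours, BCL7C, PHF10, BRD9 and BCL7B had log2 folds of -0.74, -0.54, -0.50 and -0.52, beside neighbour medians of -0.65, -0.54, -0.69 and -0.45. Single neighbours varied widely around these medians, from -7.38 to 3.20 for BRD9, from -2.34 to 2.27 for BCL7C, from -1.25 to 0.31 for BCL7B and from -1.09 to 0.00 for PHF10. The part of the region in these results was not tested. Over the 29 subunits, Pearson's r between the log2 fold of a subunit and its neighbours' median was 0.14 and Spearman's rho was 0.33, which are descriptions across genes measured in the same libraries.

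**Figure D5:**
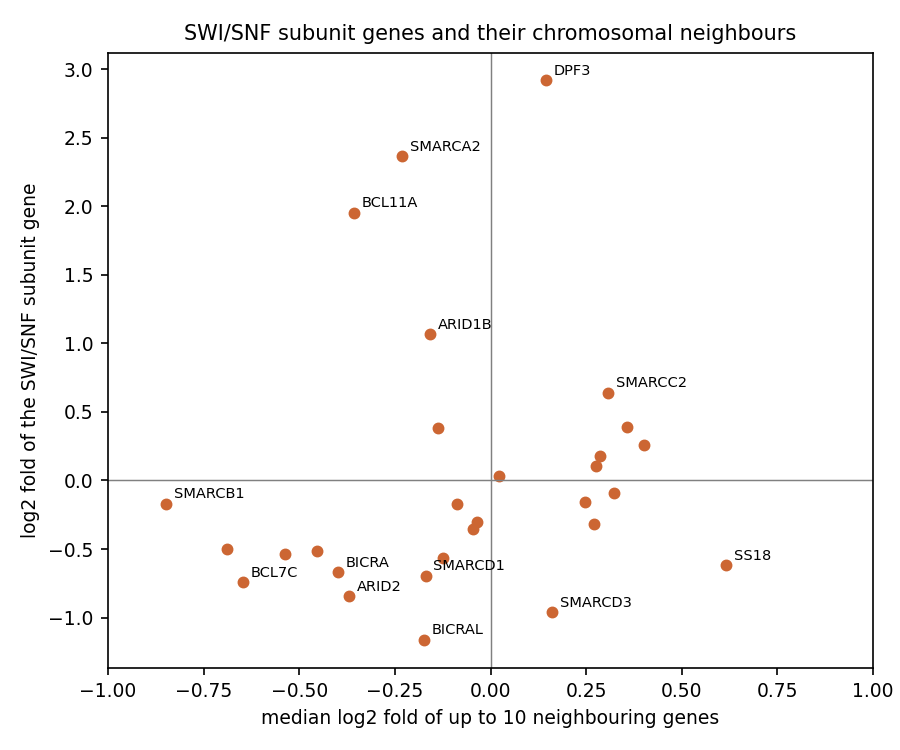
Log2 fold of each of the 29 SWI/SNF subunit genes with at least 10 reads (vertical axis) against the median log2 fold of up to 10 neighbouring protein-coding genes (horizontal axis); each point is a gene, grey lines mark no change, and named points are SMARCB1 and the subunits past 1.5-fold. SMARCA2 and BCL11A are high where the median of their neighbours is slightly below 0, and BCL7C is low where that median is low too.

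Some subunit genes share sequence or position with other transcripts, which limits their counts. Besides SMARCC2, SMARCD3 and PHF10, exonic bases were shared on the opposite strand by BRD7 with ADCY7, which had 403 parental and 708 KO reads, and by ACTL6A with MRPL47, which had 2023 and 2315 reads. PBRM1 shares 146 such bases with UQCC5, which had 333 and 193 reads, and its span but no exonic base overlaps GNL3, which had 11771 and 16116 reads. BCL7C shares 93 bases with MIR762HG, which had 29 and 15 reads, and ARID1A shares 382 bases with the unnamed gene ENSG00000260063, which had 62 and 33 reads. ACTL6A also shares 96 bases with the unnamed gene ENSG00000272910, which had 2 and 16 reads. The unnamed gene ENSG00000271551 overlaps ARID1B in 747 bases of the opposite strand and had 17 and 3 reads. DERL3 shares 2923 bases with SMARCB1 but had only 15 and 23 reads. On the same strand, the unnamed gene ENSG00000264058 covers 3487 exonic bases of SMARCE1 and had 32 and 0 reads, and ZDHHC11 shares 222 bases with BRD9 and had 67 and 35 reads. The processed pseudogenes SMARCE1P1, with 19 and 24 reads, and ACTBP11, with 12 and 26 reads, were rarely counted. SMARCA2, SMARCA4, BICRAL, ARID2, DPF3 and BCL11A had no overlapping gene with at least 10 reads.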

How the data were processed

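RNA-Seq was measured in 1 parental and 1 CARM1 KO library of A1847 cells, from total RNA with the ScriptSeq complete Gold kit and paired 75 bp reads. Per the paper and labels, the authors mapped reads with bowtie2 against hg19 and estimated counts per Ensembl gene with RSEM, for which the submitters' processing notes name version 1.2.3 and the paper a later one. They deposited whole-number counts without normalization, and the annotation release is not given in the sources used here. RSEM divides reads that fit several genes, and use of strand is not stated.

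Identifiers were matched to GENCODE v44 lifted to GRCh37 (55501 of 57736). TMM scaling was computed in edgeR 4.0.16 (R 4.3.3) over the 18563 genes that reached 10 reads over both libraries. Counts under 3 were set to 3 for counts and medians over genes. Intervals of 95% came from scipy 1.17.1 and, for paralog ratios, from Fisher's conditional method in R. They cover counting error only. A gene was counted as past a limit of 1.5-fold, 2-fold or 3-fold by fold alone. The recovery of folds after TMM scaling was tested on simulated counts that held counting error alone. edgeR's quasi-likelihood test cannot be used with 1 library per group.

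The subunits and lists were chosen with earlier results of these data known. Named genes were all subunits, CARM1, fixed marker genes, and overlapping genes or pseudogenes with at least 10 reads. In each other remodeller family, up to 4 genes past 2-fold were named. The neighbours of SMARCA2, ARID1B, BCL11A and DPF3 that are named were chosen after their values were seen. So were the subunits whose neighbour medians are given. PECAM1, a marker on the list, was not analysed here. Promoter windows were from RefSeq (26 of 31 subunits matched; ACTB, ACTL6A, ARID2, SMARCC1 and SMARCC2 did not). Alternatives were other scalings, read minimums, a prior count of 2, transcript length, and the edgeR exact test with an assumed coefficient of variation.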

Additional observations from a re-analysis of the deposited data

How the results depend on the processing

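Scaling by DESeq2 1.42.0 size factors, by the upper quartile or by library size alone, a minimum of 1 or 50 reads and a prior count of 2 left each count of subunits past 1.5-fold, 2-fold or 3-fold within 1.5 times the value reported, and the median log2 fold of the subunits between -0.20 and -0.14. The other family medians, which were not recomputed with the prior count, kept their sign and moved by less than 0.1 under the other 5 settings. Requiring an FDR under 0.05 in the edgeR exact test with an assumed coefficient of variation of 0.12 removed BICRA alone from the subunits past 1.5-fold. With an assumed coefficient of 0.4, 1 subunit, DPF3, was higher past 1.5-fold, past 2-fold and past 3-fold, and 0 were lower past 1.5-fold or 2-fold, which follows from the wider spread assumed. The share of all genes passing the same FDR limit at either coefficient is not given. The counts under this limit therefore do not set the subunits apart from other genes. No subunit called past 1.5-fold and no paralog ratio with an interval clear of 1 changed direction. The log2 fold of ACTB alone moved beyond its counting interval, under all 3 other scalings. With the longest transcript as length, 23 of 46 paralog shares moved beyond their counting interval, with the widest shifts for ARID1A and ARID1B.

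No paired analysis was possible because each group holds 1 library, which also means that leaving out a library gives no comparison. Depth limits BICRA, ACTL6B, BCL11B and DPF3, and the missing replicates limit every comparison.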
